A study of Mus musculus with 8 samples.

Results

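The genes described here are Chgb, Mbp and Kcnn2, which encode a protein of secretory granules, a protein of myelin and a calcium-activated potassium channel. They were measured in the submandibular gland, a major salivary gland, of 20-week-old male mice. The Ctrl group held 4 samples from mice on normal chow, and the group with diet-induced obesity (DIO) held 4 samples from mice on a high-fat diet. Strain, the length of feeding and the animal behind each sample are not given in the sources used here, so a p-value here reflects the spread of these samples alone, and part of that spread may be technical. A probe was taken as a member when its transcript accession belonged to one of the 3 genes, which gave 3 of the 60823 probes on the array, each printed as 10 spots, and 3 of the 46 genes that could be named. The genes were chosen by earlier results of the same arrays: Kcnn2 for its small p between the diets, Chgb after its levels were seen, and Mbp through a list of nerve genes. Differences between the diets are therefore given for all 3 genes as a description, with no test of their own.

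Chgb encodes chromogranin B, a granin that aggregates with calcium in the dense-core granules of neurons and endocrine cells and is secreted with their peptide hormones. Mbp encodes myelin basic protein, which compacts the membrane sheath that Schwann cells wrap around peripheral axons. Its locus also makes golli transcripts, which cells without myelin can express. Kcnn2 encodes SK2, a small-conductance potassium channel gated by calcium through bound calmodulin, best known for setting the pause after action potentials in neurons. Secretion of saliva is driven by autonomic nerves. In salivary acinar cells the calcium-activated potassium channels known to support fluid secretion are those of Kcnn4 and Kcnma1, which are other genes.

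Chgb is the gene whose level varied most of the 3, so the DNA just before its transcription start is shown as context. It comes from RefSeq (build GRCm38.p6, plus strand, chr2:132781392-132781641). The same stretch of Mbp and Kcnn2 is not shown. The capitals mark TGACGTCA, the cAMP response element, which reads the same on both strands.

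Chgb: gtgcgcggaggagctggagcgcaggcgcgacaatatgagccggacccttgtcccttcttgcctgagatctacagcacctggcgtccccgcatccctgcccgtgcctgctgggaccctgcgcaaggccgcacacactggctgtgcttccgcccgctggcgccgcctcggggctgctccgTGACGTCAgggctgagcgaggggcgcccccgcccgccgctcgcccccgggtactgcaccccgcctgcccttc

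The element begins 72 bases before the start and is present once in these 250 bases, 72.8% of which are G or C. Of 32851 such windows of 250 bases in the table, 508 (1.55%) hold the same letters. Nothing was measured at this DNA, and the match is a description of the sequence only.

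The probe of Chgb (A_51_P191669) is tied to NM_007694, the single transcript RefSeq lists for this gene. The probe of Mbp (A_51_P349205) is tied to NM_010777, 1 of 17 listed transcripts, and that of Kcnn2 (A_51_P309854) to NM_080465, 1 of 5. The files give no probe sequence that could be used here, so the Mbp and Kcnn2 values cannot be assigned to a single isoform.

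Before the results, the arrays themselves differed. The 75th percentile of the processed signal lay between 239.8 and 321 on the 8 arrays, and 81.2% to 91.2% of spots were well above background. Ctrl array 2 stood apart, with a correlation across probes of 0.941 to 0.958 with the other arrays, against 0.981 to 0.990 among those arrays. The differences between the diets and the correlation of Chgb and Mbp are given with and without it. Other results include it unless stated. All 8 arrays came from a single scan, and the first number of an array's position in the file header goes with the diet, so the effects of diet and of position cannot be told apart.

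All 3 genes gave signal well above background on every array, at 240 of their 240 spots. Between 81.2% and 91.2% of all spots on an array had the same mark, so it sets these genes little apart from other probes. By itself the mark does not establish that the gland expresses them. Levels are given as log2 of the processed signal minus the log2 of the 75th percentile of the array, so that 0 is the brightness of that percentile. Differences are log2 DIO minus Ctrl. Probes bind with unequal strength, so the levels of different genes are not set against each other.

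Chgb varied widely inside each diet group. Its log2 level was -2.39, 0.17, -1.90 and -0.89 on Ctrl arrays 1 to 4. It was -2.65, 0.29, -2.16 and -2.51 on DIO arrays 1 to 4. Array 2 was the highest of its group in both diets, and Ctrl array 4 was the next highest of all 8. The groups overlapped. From the lowest to the highest array the level of this granule gene changed 7.65-fold.

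The wide range of Chgb was also seen in single spots. On Ctrl array 2 its 10 spots lay between 0.10 and 0.25, while the highest spot on any other Ctrl array was -0.84. On DIO array 2 the spots lay between 0.23 and 0.34, against at most -1.92 on the other DIO arrays. Outlier spots aside, every spot on the arrays numbered 2 was thus brighter than every spot on the others. The uncorrected signal was 14.9 times the local background on Ctrl array 2 and 15.9 times on DIO array 2, and 2.83 to 9.07 times on the other 6 arrays. Spots of the same array had a median SD of 0.10 for Chgb, and the pooled SD of 1.26 between arrays of a group was 12.0 times as large.

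Mbp was the steadiest of the 3 genes. Its log2 level was 0.04, 0.62, 0.18 and 0.25 on Ctrl arrays 1 to 4. On DIO arrays 1 to 4 it was 0.07, 0.53, -0.10 and -0.40. Array 2 was again the highest of its group in both diets, DIO array 4 was the lowest of all, and the groups overlapped. The highest level of this myelin gene was 2.03-fold the lowest. Its pooled SD between arrays was 0.33, and 5.88 times the median SD between spots.

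Kcnn2 lay between Chgb and Mbp in spread. Its log2 level was -1.41, -1.01, -2.57 and -2.26 on Ctrl arrays 1 to 4. On DIO arrays 1 to 4 it was -2.93, -1.86, -3.16 and -2.31. Array 2 was the highest of its group once more, and DIO arrays 1 and 3 were below every Ctrl array, while DIO arrays 2 and 4 lay within the Ctrl range. The lowest and highest arrays differed 4.42-fold for this channel gene. On DIO arrays 1 and 3 its spots were 2.32 and 2.41 times as bright as the local background, and on the others 3.03 to 6.16 times. Its pooled SD between arrays was 0.66, which is 8.27 times the median SD between spots.

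**Figure D1:**
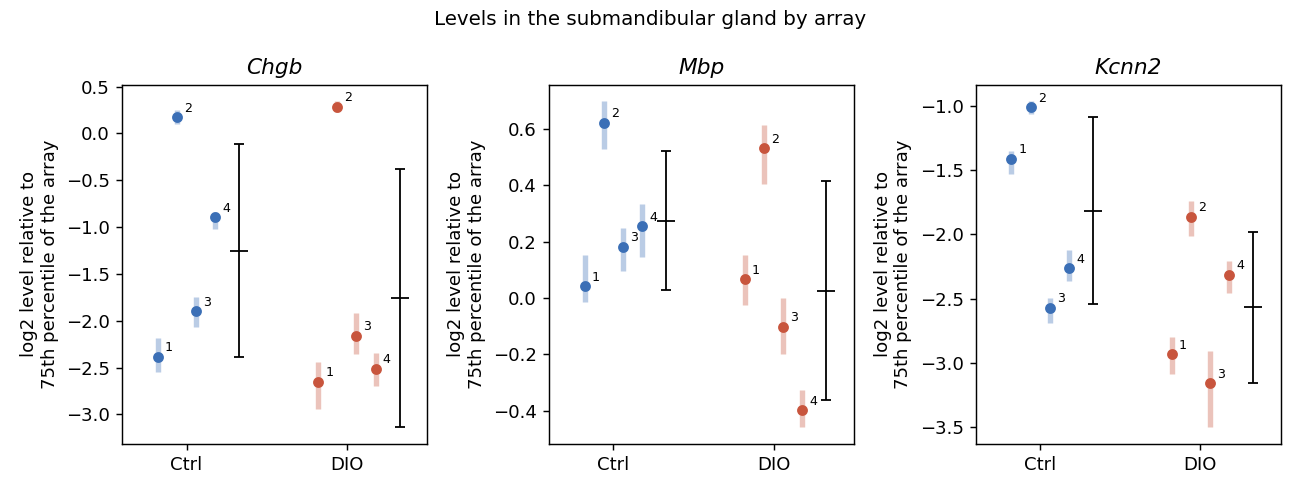
Log2 level of Chgb, Mbp and Kcnn2 against the array's 75th percentile, for 4 Ctrl (blue) and 4 DIO (red) arrays; the y axes differ in range. Points are arrays with their number, pale bars the range of the 10 spots without outlier spots, and black marks the group mean with 1 SD. The array numbered 2 is the highest of its group in all 6 cases.

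The spread of the 3 genes can be read against that of all probes tested. The median pooled SD over 54187 probes was 0.26. The SD of Chgb was larger than that of 99.1% of them, the SD of Kcnn2 larger than that of 92.7%, and the SD of Mbp larger than that of 64.8%. Among the 44 genes that could be named and tested, Mzb1 alone had a larger pooled SD than Chgb.

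Array 2 was the highest of both groups for 3 of 3 genes. Among 54133 probes measured on all arrays, the same was true of 11.6%, and of 11% for arrays numbered 1, 7.49% for arrays numbered 3 and 7.39% for arrays numbered 4. Chgb was chosen after its levels on these arrays were seen, and Chgb and Mbp varied together. The 3 of 3 is therefore a description and not a test against that share. Within its group, Ctrl array 2 exceeded the mean of the other Ctrl arrays by 1.90 for Chgb, 0.46 for Mbp and 1.07 for Kcnn2. DIO array 2 exceeded the other DIO arrays by 2.73 for Chgb, 0.68 for Mbp and 0.94 for Kcnn2. In linear terms the Chgb level was 3.73-fold and 6.62-fold that of the other arrays, while the Mbp level was 1.38-fold and 1.60-fold. The 3 genes thus peaked on arrays of the same number by unequal amounts.

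Of 3 other readouts of these arrays, 1 was high on both arrays numbered 2 and the others were not. Mzb1, a protein of B and plasma cells and the only named gene of 13 B and plasma cell genes, stood at 2.62 on Ctrl array 2 and at -1.10 to -1.05 on the other Ctrl arrays. On DIO array 2 it stood at -1.25, the lowest of its group, against 0.82 to 1.15 on the others. The gene was thus highest on Ctrl array 2 and lowest on DIO array 2, whereas Chgb, Mbp and Kcnn2 were high on both. For the Pgk1 control transcript, the log2 signal of its 3′ probe minus that of its 5′ probe was 7.28 on Ctrl array 2, the lowest of all, and 7.69 on DIO array 2, within the DIO range of 7.66 to 7.83. The same measure for Gapdh was highest of its group on array 2 in both diets, at 2.50 against 2.15 to 2.36 in Ctrl and at 2.39 against 2.23 to 2.36 in DIO. The part of these measures in the levels of the 3 genes was not tested.

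Between the diets, all 3 genes had a lower mean in DIO, and none of the differences passed the test against the spread between arrays. In the limma fit over all 54187 probes, 0 passed an adjusted p of 0.05 (0% called), the 3 genes included, and 2441 probes had an unadjusted p below 0.05. A lower mean in DIO was also found for 54.2% of all probes. The comparison of the diets was known when the genes were chosen, so these directions support nothing. The Pgk1 control measure also went with the diet, at 7.28 to 7.54 on the Ctrl and 7.66 to 7.83 on the DIO arrays, and its part in the differences was not tested. That of Gapdh overlapped between the diets, at 2.15 to 2.50 on the Ctrl and 2.23 to 2.39 on the DIO arrays. In bulk tissue, fewer cells that express a gene and less RNA per cell cannot be told apart.

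The Ctrl arrays averaged -1.25 ± 1.13 (SD, n = 4) and the DIO arrays -1.76 ± 1.38 (SD, n = 4) for the log2 level of Chgb. DIO minus Ctrl was -0.51 and had a standard error of 0.74 and a 95% interval of -2.20 to 1.18. On the linear scale the DIO level of chromogranin B mRNA was 0.704-fold the Ctrl level, with limits of 0.218 and 2.27. These data therefore leave room for a more than 4-fold fall as well as for a more than 2-fold rise. Without Ctrl array 2 the difference was -0.03 and without DIO array 2 it was -1.19, so its size depended on the arrays numbered 2. With normexp background correction it was -0.28. Without DIO array 1 it was -0.21, without DIO array 4 -0.26, and without Ctrl array 1 -0.88.

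The Ctrl arrays averaged 0.28 ± 0.25 (SD, n = 4) and the DIO arrays 0.03 ± 0.39 (SD, n = 4) for the log2 level of Mbp. DIO minus Ctrl was -0.25 and had a standard error of 0.21 and a 95% interval of -0.73 to 0.23. The DIO level of this myelin mRNA was 0.841-fold the Ctrl level, with limits of 0.601 and 1.18, so a 2-fold change lies outside the interval. DIO array 4 was the array that lowered the DIO mean most, and without it the difference was -0.11. Without Ctrl array 2 it was -0.13 and without DIO array 2 -0.42.

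The Ctrl arrays averaged -1.81 ± 0.73 (SD, n = 4) and the DIO arrays -2.57 ± 0.59 (SD, n = 4) for the log2 level of Kcnn2. DIO minus Ctrl was -0.75 and had a standard error of 0.40 and a 95% interval of -1.66 to 0.15. In linear terms the channel mRNA in DIO was 0.594-fold that in Ctrl, with limits of 0.317 and 1.11. In size this difference was larger than that of 97.2% of probes tested, in the contrast that had also been used to choose the gene. With normexp background correction, which adds an offset of 50 and so compresses dim signals, the difference was -0.35. Without Ctrl array 2 it was -0.48. Among the 8 fits that left out an array, the 95% interval lay below 0 without Ctrl array 3 (-1.91 to -0.10) and without DIO array 2 (-1.92 to -0.05).

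No gene of the 3 had DIO arrays that were all below the Ctrl arrays, which was the case for 1.94% of 54133 probes. When arrays were set side by side by number, Kcnn2 was lower in DIO for 4 of 4 numbers, with differences from -1.52 for number 1 to -0.05 for number 4. That was so for 11.9% of all probes, and nothing in the labels makes same-numbered samples a pair. Chgb and Mbp were each lower for 3 of 4 numbers. The exceptions were number 2 for Chgb, at 0.12, and number 1 for Mbp, at 0.03.

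**Figure D2:**
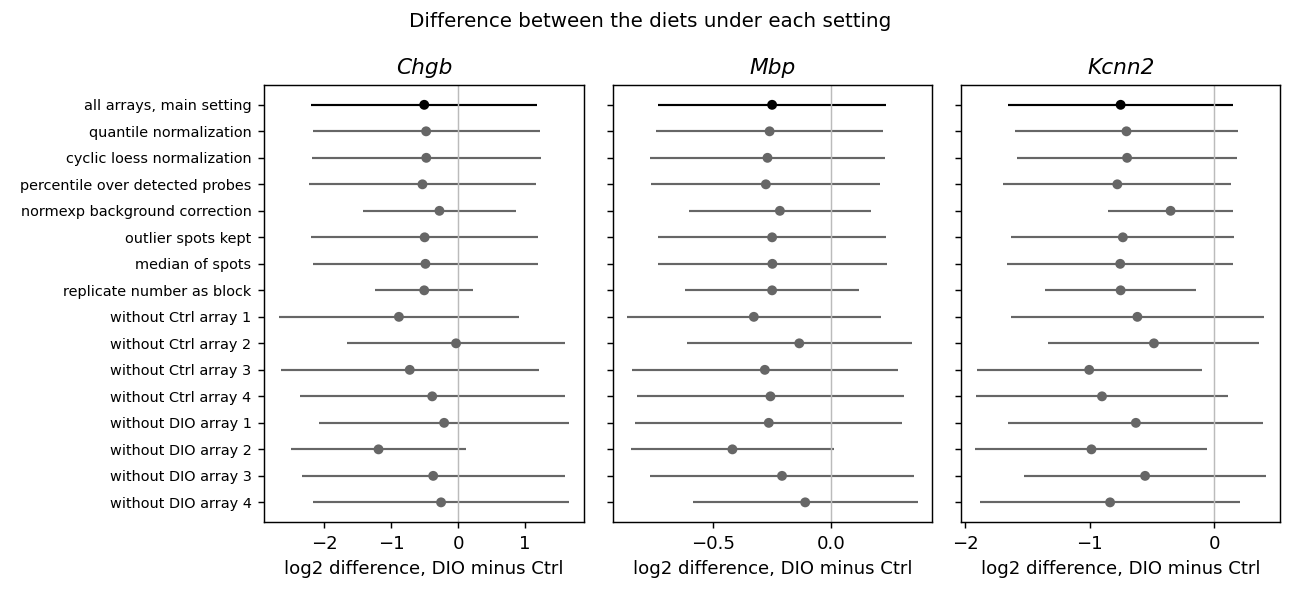
Log2 difference DIO minus Ctrl (x axis) for Chgb, Mbp and Kcnn2, under the main setting (black), with other processing and without each array in turn (grey), with 95% limma intervals; the x axes differ in range. Among the settings drawn, the Chgb difference runs from -1.19 without DIO array 2 to -0.03 without Ctrl array 2, and its interval spans 0 in each of them.

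Chgb and Mbp varied together on these arrays. Chgb was chosen after its levels on the same arrays were seen, so the p-values of its pairs describe these arrays and are no independent evidence. Over the 8 arrays their levels had a Pearson r of 0.88 (exact permutation p = 0.00226, two-sided, 0.00677 adjusted over the 3 pairs). Spearman's rho was 0.81 (exact permutation p = 0.0218, 0.0653 adjusted). With each level taken as the deviation from its group mean, r was also 0.88 (exact permutation within groups, adjusted p = 0.0417). Spearman's rho of these deviations was lower, at 0.69 (exact permutation within groups, p = 0.101, 0.302 adjusted). The relation rested on the arrays numbered 2, which are the farthest from the median of Chgb. Without both, r was 0.62 over 6 arrays (exact permutation p = 0.203). Without Ctrl array 2 alone, r was 0.82 (exact permutation, adjusted p = 0.0607), and leaving out any other single array gave 0.84 to 0.93. The exact permutation p-values of all 3 pairs also treat the 8 arrays as unrelated. Yet 4 of 4 Ctrl arrays and 3 of 4 DIO arrays correlated best with the array of their own number. If same-numbered arrays are related, these p-values may be too small, which was not tested. Groups of 4 arrays are too small for a value within each diet.

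Kcnn2 followed the other genes less closely. Its r with Chgb was 0.58 and rho 0.52 (exact permutation p = 0.130 and 0.197, adjusted 0.147 and 0.197). With Mbp, r was 0.56 and rho 0.57 (exact permutation p = 0.147 and 0.151, adjusted 0.147 and 0.197). Ctrl array 1 departed most, with Kcnn2 high and Chgb low. Without that array the r of Chgb and Kcnn2 was 0.82 (exact permutation, adjusted p = 0.0238), and without both arrays numbered 2 it was 0.08. Removing the array that departs most from a relation raises r, so the p of 0.0238 is not a test. Leaving out any other single array gave r of 0.34 to 0.60 (exact permutation, adjusted p of 0.161 to 0.535). For Mbp and Kcnn2, r was 0.07 without both arrays numbered 2, and 0.47 without Ctrl array 2 and DIO array 4, the arrays farthest from the median of Mbp. Neither relation of Kcnn2 passed with all 8 arrays, which does not show that the levels are unrelated.

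**Figure D3:**
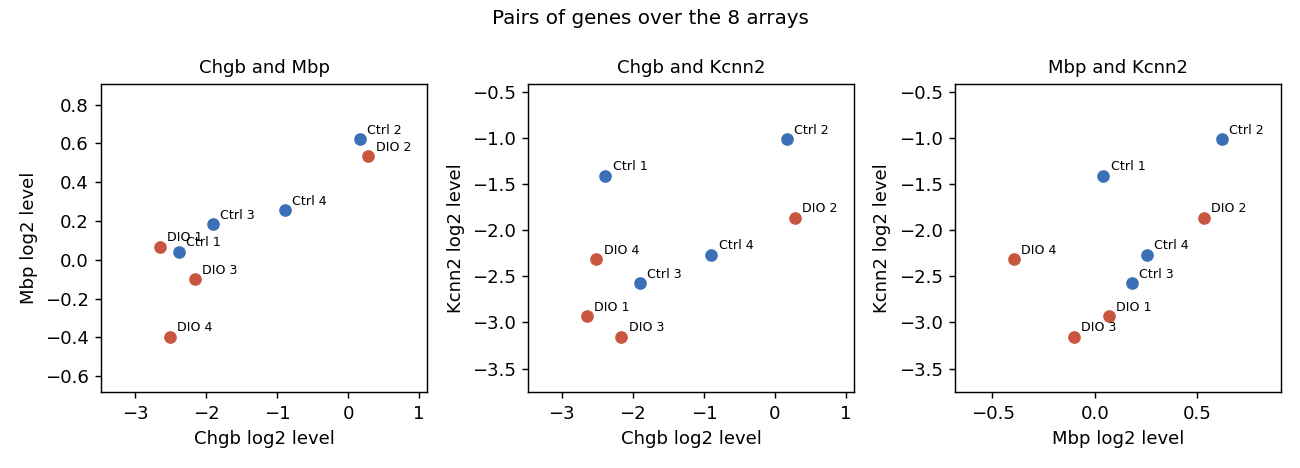
Log2 levels of each pair of genes on the 4 Ctrl (blue) and 4 DIO (red) arrays, each point an array with its label and each axis a log2 level against the array's 75th percentile. Ctrl 2 and DIO 2 sit at the upper right of the plot of Chgb and Mbp, where r is 0.88 with all arrays and 0.62 without these arrays.

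The closest patterns among the named genes were then listed, by Pearson r over the 8 arrays and with no test. For Chgb, Mbp was the closest of the 43 other named genes. Lhfp, a tetraspan membrane protein, followed at 0.83, and Alkbh4, a demethylase, at 0.78. For Mbp, the closest was Taf1a, a subunit of the RNA polymerase I initiation factor, at 0.91, then Chgb, then Alkbh4 at 0.86. For Kcnn2, the closest were Nup50, a nuclear pore protein, at 0.83, Lhfp at 0.82 and Bambi, a decoy receptor of TGF-beta signalling, at 0.78. Without Ctrl array 2 the r of Taf1a with Mbp was 0.90, while that of Nup50 with Kcnn2 was 0.68 and that of Lhfp with Chgb was 0.74.

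Opposite patterns were found as well. The lowest r was -0.84 for Chgb, with Pex11a, a protein of peroxisome division. It was -0.80 for Mbp, with Carhsp1, an RNA-binding protein. For Kcnn2 it was -0.81, with Duox1, an oxidase that makes hydrogen peroxide. These genes share the arrays and the scaling with the members, and with 8 arrays many probes reach such values. The shares below use a limit of 0.9 in size, which only Taf1a with Mbp reached among the named genes. At the other values above, the shares are at least as large, and were not counted. An r of at least 0.9 was reached by 159 of 54186 probes (0.293%) for Chgb, 201 (0.371%) for Mbp and 236 (0.436%) for Kcnn2. An r of -0.9 or lower was reached by 104 probes (0.192%) for Chgb, 76 (0.14%) for Mbp and 359 (0.663%) for Kcnn2. The nearest of all was an unnamed probe for each gene, with r of 0.99 for Chgb, 0.98 for Mbp and 0.99 for Kcnn2.

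**Figure D4:**
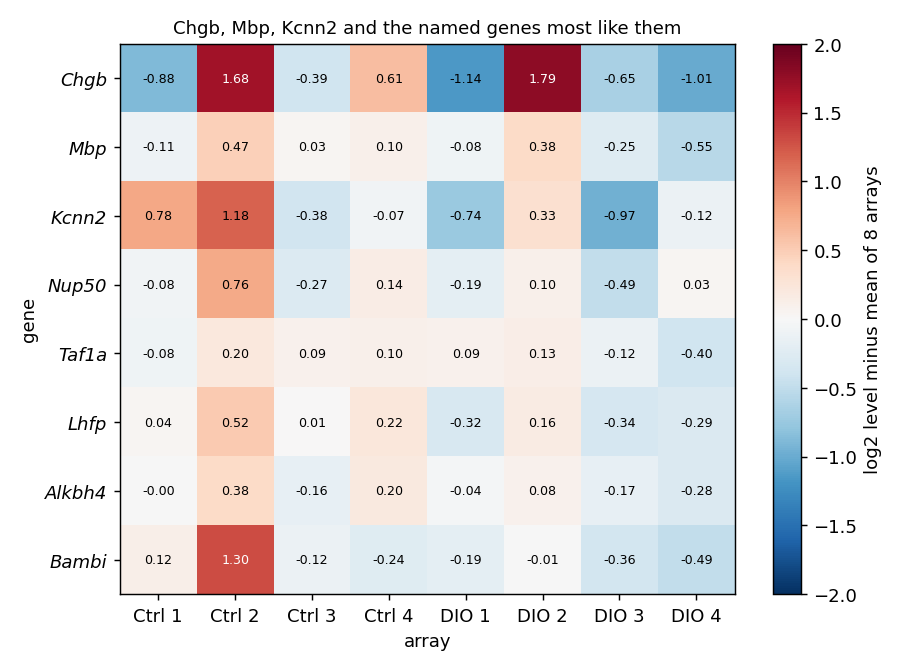
Log2 level minus the mean of the 8 arrays (colour and printed value) for Chgb, Mbp, Kcnn2 and the named genes closest to them (rows), by array (columns). The column of Ctrl 2 is above the mean for all 8 genes shown, and DIO 2 is above it for all but Bambi.

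The pathways of the 3 genes could be followed only a little further. Of 26 myelin and Schwann cell genes, Mbp alone had a named probe, and of 25 other genes of neurons and nerves, 0 had one. Of 23 calcium-activated channels and their partners, Kcnn2 alone had one. Of 29 genes of neuroendocrine secretory granules and their cells, Chgb is the one reported here. None of the 3 genes passed the test between the diets in limma.

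Markers of other cells were as sparse. Il2, a cytokine and the only named gene of 10 T cell genes, lay between -3.73 and -3.07 in Ctrl and between -3.36 and -2.85 in DIO. Of 47 genes of salivary acinar, duct and myoepithelial cells, 0 had a named probe, so the tissue label could not be checked against its markers. Of 51 genes of myeloid, endothelial, fibroblast, fat, muscle and lymph node cells, 0 had one either. Unnamed probes may hold other members of these lists.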

How the data were processed

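The 8 one-colour (Cy3) arrays were deposited as scanner output. Per the labels' protocols, ribosomal RNA was removed and the rest amplified with random primers along the whole transcript. Per the submitters' processing notes, spots were read with Agilent Feature Extraction 11.0.1.1. The processed intensity that the authors deposited had its background subtracted and a spatial trend removed by that program, per the file headers, but was not normalized between arrays. Deposited median intensities of spots and local background are raw. The remaining columns taken from the deposited files mark each spot as above background, outlying or saturated. How the authors normalized between arrays was not known here. The header names mm9 for the array design, and names and the promoter came from RefSeq tables of GRCm38.p6.

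Each array's 75th percentile of log2 processed signal over the non-control spots was subtracted. Control and outlier spots were left out (4 of the 240 member spots) and the spots of a probe averaged. Probes well above background on at least 4 of 8 arrays and measured on at least 3 of each group were tested, 54187 in all. Accessions were given for 50 probes, and 46 matched a symbol, 44 of them tested. The groups were compared in limma 3.58.1 (R 4.3.3, two-sided, Benjamini-Hochberg over all tested probes). Correlations had exact permutation tests over the 40320 pairings of 8 arrays, or over pairings within groups where stated. The method was tested on simulated data. Members and gene lists (15 lists, 224 genes) were chosen with earlier results of these data known. Named genes are the members, the 3 named genes with the highest r and the 1 with the lowest r for each, and up to 3 per list. Il2 and Mzb1 are named by their lists, and 1 further list gene is left out of the text.

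Same-numbered arrays were not treated as pairs. Their deviations from the group means correlated at 0.29, 0.30, 0.26 and 0.06 for numbers 1 to 4, and the last is below the 0.1 required of every number. Plots were drawn with matplotlib 3.10.9.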

Additional observations from a re-analysis of the deposited data

Results flagged for a closer look

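In a group of 4 arrays, an array was taken to stand apart when its gap to the nearest array exceeded Dixon's 95% critical value, taken as a share of the range of the group. Of 24 combinations of gene and diet, 4 did so. The 12 genes checked were the 3 members, the named genes closest and most opposite to each, and Mzb1, added by name. Chance gives about 1 in 20, but most of these genes were named for following or opposing genes that peak on array 2. The count is therefore not a test. All 4 were on an array numbered 2. For Chgb, DIO array 2 stood apart at a log2 level of 0.29, above the other DIO arrays. For Lhfp, DIO array 2 also stood apart on the high side, at 0.70, while the other DIO arrays lay between 0.21 and 0.26. For Mzb1, Ctrl array 2 stood apart on the high side at 2.62 and DIO array 2 on the low side at -1.25. Chgb on Ctrl array 2, and Mbp and Kcnn2 on either array, did not stand apart by this measure.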

How the results depend on the processing

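The 3 differences between the diets kept their sign under other normalizations, background correction and spot summaries, and when any array was left out, where Chgb ranged from -1.19 to -0.03, Mbp from -0.42 to -0.11 and Kcnn2 from -1.005 to -0.48. With quantile normalization and without Ctrl array 2, chosen after seeing the data, the Chgb difference was 0.003, so its sign was not kept there. Normexp ran on median signals in place of the planned mean signals, and gave -0.28 for Chgb. No probe passed in limma under any of 19 alternatives. Under a replicate block (the number as an added term) the differences had the same size, with 95% intervals of -1.24 to 0.22 for Chgb, -0.62 to 0.12 for Mbp and -1.36 to -0.14 for Kcnn2, and 0 probes passed. The numbers are not known to pair the samples, although 4 of 4 Ctrl arrays and 3 of 4 DIO arrays correlated best with the array of their own number. The correlation of Chgb and Mbp was 0.88 to 0.90 under other processing. It missed the threshold at 0.62 without both arrays numbered 2 (also the arrays farthest from the Chgb median). It also missed it at 0.82 without Ctrl array 2 alone (exact permutation, adjusted p = 0.0607). The correlation ranged from 0.82 to 0.93 when an array was left out. That of Chgb and Kcnn2 ranged from 0.34 to 0.82 and that of Mbp and Kcnn2 from 0.30 to 0.70 in the same fits. The number of arrays and, for Kcnn2 in DIO, a signal close to background limit the precision.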
